A study of Mus musculus with 3 samples.

Results

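R3 is a cluster of macrophages that carries RNA of skeletal muscle fibres. It was defined as the 226 cells that the authors' deposited annotation assigns to cluster R3, out of 4374 cells in all. All cells came from sorted macrophages of mouse quadriceps muscle, taken 1 week after part of the muscle had been cut away (volumetric muscle loss). The wound was treated with urinary bladder matrix (UBM, a decellularised extracellular matrix scaffold), with polycaprolactone (PCL, a synthetic polyester) or with saline, and there was 1 library for each treatment. R3 held 173 of 2280 UBM cells, 16 of 1753 PCL cells and 37 of 341 saline cells. The labels name no genetic modification. They do not state strain, sex, age, mice per library or the sorting gate.

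Skeletal muscle fibres are multinucleated cells filled with sarcomeres, in which myosin thick filaments pull on actin thin filaments between Z discs under the control of calcium and troponin. Their RNA is dominated by these contractile proteins and by enzymes of energy supply. After injury, macrophages enter the muscle, engulf dying fibres and release factors that act on muscle stem cells. Transcripts of fibre proteins are not part of the known macrophage program.

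The muscle-fibre genes with the highest levels in R3 encode proteins of the sarcomere. Promoters of the measured muscle-fibre genes were searched for sequence motifs. The elements were the E-box CANNTG, which the myogenic factors of the MyoD family bind, the CArG box, bound by serum response factor, and the MEF2 site, each on either strand. In 300-base windows, from 250 bases before to 50 bases after a transcription start, RefSeq (GRCm38.p6) gave 38 promoters for 32 of the 44 measured muscle-fibre genes. A CArG box on either strand was in 5 of the 38 (13.2%), against 1.63% of all 32851 promoters. These 5 promoters belong to 4 of the 32 genes, since Ldb3 was counted with more than 1 promoter. A MEF2 site was in 7 (18.4%), against 3.19%, and an E-box in 33 (86.8%), against 72.3%; the motifs were allowed to overlap. The 2 actin promoters are shown because Acta1, skeletal actin, had the highest level of all muscle-fibre genes in R3, and Actc1 encodes the actin of heart and of developing or regenerating fibres. The capitals mark the CArG box, which begins 73 bases before the start in Acta1 (chr8:123894726-123895025, minus strand) and 47 bases before it in Actc1 (chr2:114052826-114053125, minus strand). The promoters of Mylpf, Myl1 and Tnnc2, whose levels in R3 came next after Acta1, had no CArG box and no MEF2 site. Actc1 had a lower level in R3 than these genes. A match describes the letters only and is not evidence of binding.
Acta1: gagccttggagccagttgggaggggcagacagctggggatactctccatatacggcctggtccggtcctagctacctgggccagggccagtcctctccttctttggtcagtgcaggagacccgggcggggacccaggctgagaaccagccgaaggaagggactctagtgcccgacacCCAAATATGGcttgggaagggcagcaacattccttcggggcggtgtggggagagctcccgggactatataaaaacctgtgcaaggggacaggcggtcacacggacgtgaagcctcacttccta
Actc1: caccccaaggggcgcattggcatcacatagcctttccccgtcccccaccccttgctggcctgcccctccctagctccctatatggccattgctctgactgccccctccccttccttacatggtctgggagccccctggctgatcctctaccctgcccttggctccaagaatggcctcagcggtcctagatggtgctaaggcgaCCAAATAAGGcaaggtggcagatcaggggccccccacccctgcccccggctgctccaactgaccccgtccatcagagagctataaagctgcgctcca

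R3 cells had the RNA of macrophages. Lyz2 (lysozyme) was detected in 225 of 226 R3 cells, C1qc (a chain of the complement protein C1q) in 223 and Cd68 (a lysosomal glycoprotein) in 213. Levels are given as CPM, a gene's summed UMIs scaled to the same total in each group, where a UMI is a tag that marks 1 captured RNA molecule. Lyz2 was 21296 CPM in R3 against 10393 CPM in all other cells, Cd68 1042 against 628 CPM and C1qc 4702 against 1800 CPM. The gap depended on the library. Lyz2 was 21277 against 4550 CPM in UBM, 20348 against 16254 CPM in PCL and 21800 against 18482 CPM in saline, and Cd68 was 1090 against 694 CPM, 1408 against 557 CPM and 618 against 564 CPM in the same order. Of the 9 macrophage markers examined, Lyz2, Cd68, C1qb, C1qc and Mertk were highest in R3 among the authors' 9 clusters. C1qa and Csf1r, the receptor for macrophage colony-stimulating factor, ranked 2 in R3, Adgre1 (F4/80) ranked 3 and Fcgr1 ranked 5. The label thus holds for macrophage genes, with 1 saline cell as an exception: it had no Lyz2 UMI, and 384 of its 1585 UMIs (24.2%) were muscle-fibre UMIs.

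Genes of osteoclasts, the multinucleated macrophages of bone, gave a split picture. Acp5 (tartrate-resistant acid phosphatase) was 674 CPM in R3 against 137 CPM in other cells, 4.93-fold higher (4.61 to 5.27). Atp6v0d2, a proton pump subunit, was 346 CPM against 75.4 CPM, and Ctsk (cathepsin K) 195 CPM against 78.6 CPM. All 3 were highest in R3 of the 9 clusters over all libraries, but not in each library. In saline Acp5 was 403 against 147 CPM, while Atp6v0d2 was 44.7 against 79.8 CPM and Ctsk had no UMI in R3 against 11.6 CPM in other cells. In PCL Acp5 was 215 against 206 CPM. The fusion genes Dcstamp and Ocstamp, needed for multinucleation, were near 0: they were seen in 3 and 2 of the 226 R3 cells, against 130 and 53 of 4148 other cells. Ctsk came from 49 R3 cells, and a single cell held 45.8% of its UMIs in UBM R3. Intervals here and throughout are exact 95% intervals of the ratio of UMI counts and cover counting error only. Since the cluster was formed on these genes, R3 against other cells is a description with no test, and each treatment has 1 library.

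**Figure D1:**
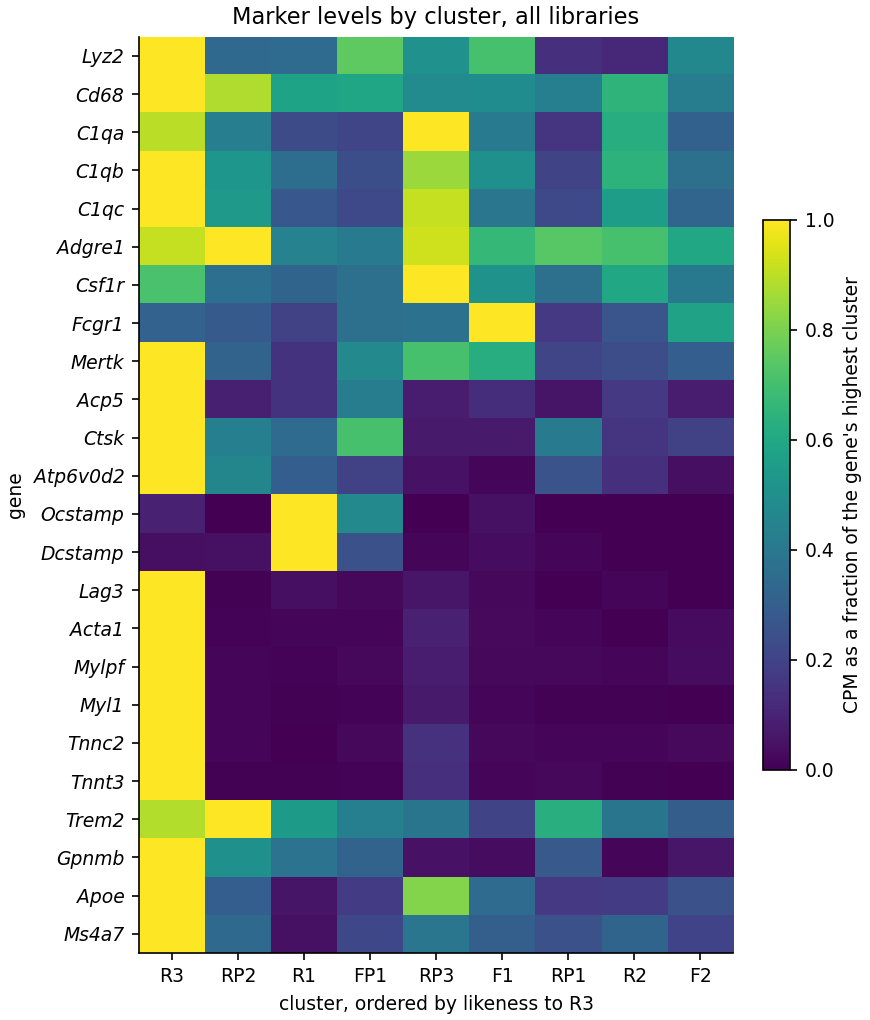
Levels of macrophage, osteoclast, muscle-fibre and lipid-handling genes (rows) in each of the 9 clusters (columns, R3 first and the others by falling correlation with R3), as a fraction of the gene's highest cluster on CPM summed over all libraries. R3 is at 1 for Lyz2, Cd68, Acp5, Lag3 and the 5 muscle-fibre genes shown, while Ocstamp and Dcstamp are highest in R1.

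R3 was a small share of each library. It made up 7.59% of UBM cells (6.53 to 8.75), 0.913% of PCL cells (0.523 to 1.48) and 10.9% of saline cells (7.76 to 14.6, exact Clopper-Pearson 95% intervals). These intervals count cells within 1 library and say nothing of the spread between mice. R3 cells were deep: the median was 7272 UMIs and 2105 genes per cell, against 5404 UMIs and 1795 genes in other cells, and the median share of mitochondrial UMIs was 3.40% against 2.94%. R3 summed to 1373104 UMIs in UBM, 102272 in PCL and 245923 in saline. A count of 0 in these sums allows up to 2.18, 29.3 and 12.2 CPM. Of 6 barcodes that occurred in more than 1 library, none belonged to an R3 cell. No doublet caller was run, and doublets of a macrophage and another cell were not removed beyond what the authors did.

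Muscle-fibre RNA was concentrated in R3 but was a small part of its RNA. The list held 54 genes of the sarcomere, of calcium handling and of energy supply, of which 44 were measured. They took 0.158% of R3 UMIs, 2728 in all, against 0.0127% in other cells. Within the UBM library the share was 0.0572% in R3 (0.0533 to 0.0614) against 0.0133% in other cells, in PCL 0.187% (0.161 to 0.215) against 0.00996%, and in saline 0.712% (0.679 to 0.746) against 0.0261%. R3 was therefore the higher side in each library, and its share was lowest in UBM and highest in saline. Without the 5 richest cells of each library it was 0.0377% in UBM, 0.0385% in PCL and 0.369% in saline, so UBM and PCL were then about level. R3 held 45.4% of all muscle-fibre UMIs with 6.26% of all UMIs. In the saline library it held 80.4% of them with 13% of UMIs, in UBM 30.8% with 9.41% and in PCL 15% with 0.929%.

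The RNA was uneven among R3 cells. Muscle-fibre UMIs per R3 cell ran from 0 to 85 with a median of 1 in UBM, from 0 to 47 with a median of 2.5 in PCL and from 0 to 384 with a median of 21 in saline. No muscle-fibre UMI was seen in 74 of the 226 cells, between 1 and 9 in 95 and 10 or more in 57. The cells with 10 or more were 24 of 173 in UBM (13.9%), 6 of 16 in PCL and 27 of 37 in saline (73.0%), against 5 of 2107, 0 of 1737 (exact upper bound 0.212%) and 7 of 304 other cells. Most cells with such counts were therefore R3 cells. Just below the limit of 10 were 17 R3 cells with 5 to 9 UMIs, and just above it 13 with 10 to 14. Low counts were common elsewhere: 44.3% of other cells had at least 1 muscle-fibre UMI at a median depth of 5404 UMIs, against 67.3% of R3 cells at 7272. With each cell thinned to 2500 UMIs, which left out 8 R3 and 387 other cells, the shares were 51.4% and 24.8%. In that thinned comparison UBM gave 41.8% against 27.0%, PCL 62.5% against 21.5% and saline 96.9% against 29.1%. Other cells often counted through listed genes that were not the highest in R3. Cox7a1 was seen in 651 other cells, Cox6a2 in 311, Ryr1 in 215 and Tnnt1 in 180. Acta1 was seen in 99 other cells and Myl1 in 53.

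**Figure D2:**
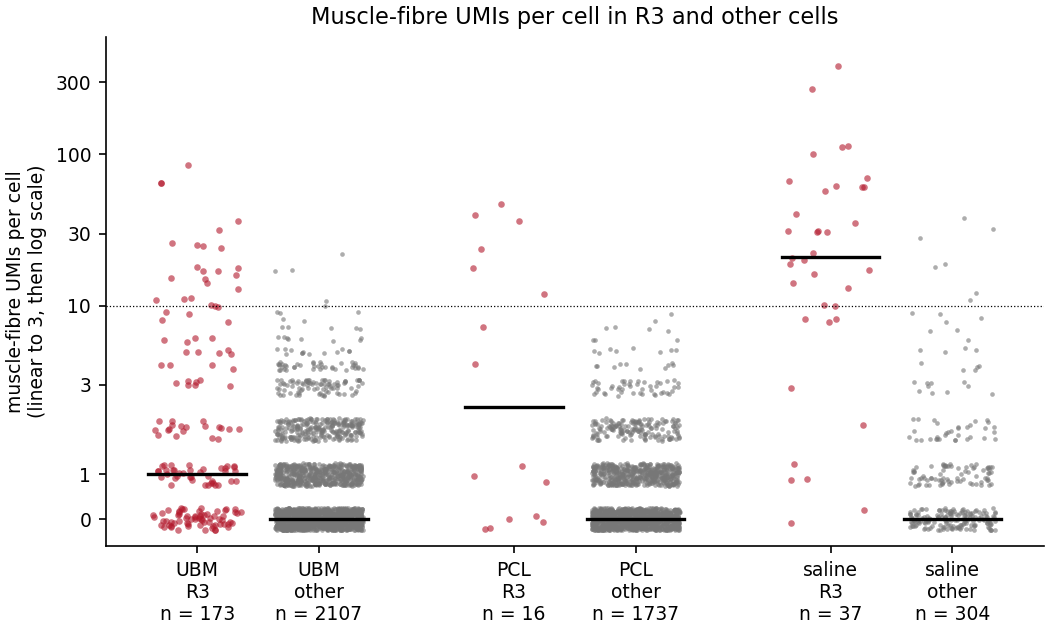
Muscle-fibre UMIs in each cell (vertical axis, linear to 3 and logarithmic above) for R3 and for other cells of each library. Each point is a cell with a small random shift, black bars are medians and the dotted line marks 10 UMIs; saline R3 cells have a median of 21, UBM R3 cells a median of 1 and other cells a median of 0.

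A few cells carried much of the total. In saline R3 the 2 richest cells held 37.4% of the muscle-fibre UMIs and the 5 richest 56.0%, in UBM R3 the 5 richest held 36% and in PCL R3, with 16 cells, 86.4%. The second richest saline cell had 270 muscle-fibre UMIs among 10114, together with 134 Lyz2 and 459 Apoe UMIs. The next 3 saline cells, with 113, 112 and 101 muscle-fibre UMIs, had 93, 92 and 124 Lyz2 UMIs. Apart from the richest cell, therefore, each of the 5 richest saline cells held macrophage and muscle-fibre RNA side by side.

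Contractile genes made up most of the muscle-fibre UMIs of R3. Thin filament genes took 44.1% of them, thick filament genes 25.8%, genes of energy supply 11.8%, of the Z disc and titin 10.3% and of calcium handling 8.03%. In other cells the order differed: energy supply took 47.2%, thin filament 26.4% and thick filament 6.87%, and the mitochondrial subunit genes Cox7a1 and Cox6a2 alone made up 23.1% and 13.8%. Genes of fast fibres (12 genes) gave 51.3% of muscle-fibre UMIs in R3 and genes of slow fibres (6 genes) 3.89%. The fast share was alike between R3 of the libraries, at 50.5% in UBM, 53.4% in PCL and 51.4% in saline. In other cells it was 10.2% in UBM, 23.7% in PCL and 44.4% in saline.

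Acta1 was 90.3 CPM in R3 against 1.97 CPM in other cells of the UBM library, 303 against 4.22 CPM in PCL and 984 against 28.0 CPM in saline. That is 45.9-fold (29.9 to 73.0), 71.9-fold (44.0 to 116) and 35.1-fold (25.5 to 49.3) higher. Acta1 was seen in 75 of 226 R3 cells and in 99 of 4148 other cells. Mylpf, the fast regulatory myosin light chain, was 85.9 against 2.95 CPM in UBM, 244 against 4.95 CPM in PCL and 927 against 22.5 CPM in saline. Myl1, the essential light chain of fast fibres, was 50.3 against 0.908 CPM in UBM, 235 against 1.83 CPM in PCL and 764 against 17 CPM in saline. R3 was higher for these genes in each library, and saline R3 was the highest group. The troponins followed, with Tnnc2 (fast troponin C) at 60.4 against 1.29 CPM and Tnnt3 (fast troponin T) at 25.5 against 1.21 CPM in UBM.

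Energy-supply genes did not all share this pattern. Ckm, muscle creatine kinase, was 18.2 against 1.06 CPM in UBM and 293 against 8.52 CPM in saline. Cox6a2 and Cox7a1, muscle-type subunits of cytochrome c oxidase, were lower in R3 than in other cells of UBM, at 10.2 against 31.0 CPM and 13.8 against 32.9 CPM. In saline both were higher in R3, at 69.1 against 5.48 CPM and 69.1 against 13.4 CPM. Myoglobin (Mb) had no UMI in UBM R3 and 126 CPM in saline R3.

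Over all libraries 2687 genes reached 50 CPM on the higher side, and 98 of them were at least 2-fold higher in R3 after adding 10 CPM (3.65%), and 134 were at least 2-fold lower (4.99%). Of the 44 measured muscle-fibre genes 8 reached 50 CPM, and they did so through R3, so that each being higher follows from the choice and from the clustering. Counting every measured gene, 42 of 44 had a log2 ratio above 0 over all libraries, with a median of 1.1. Within UBM 35 of 44 did so, with a median of 0.35, and within saline 44 of 44, with a median of 2.66. Without the saline cell richest in muscle-fibre UMIs the saline R3 share was 0.559% in place of 0.712%.

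**Figure D3:**
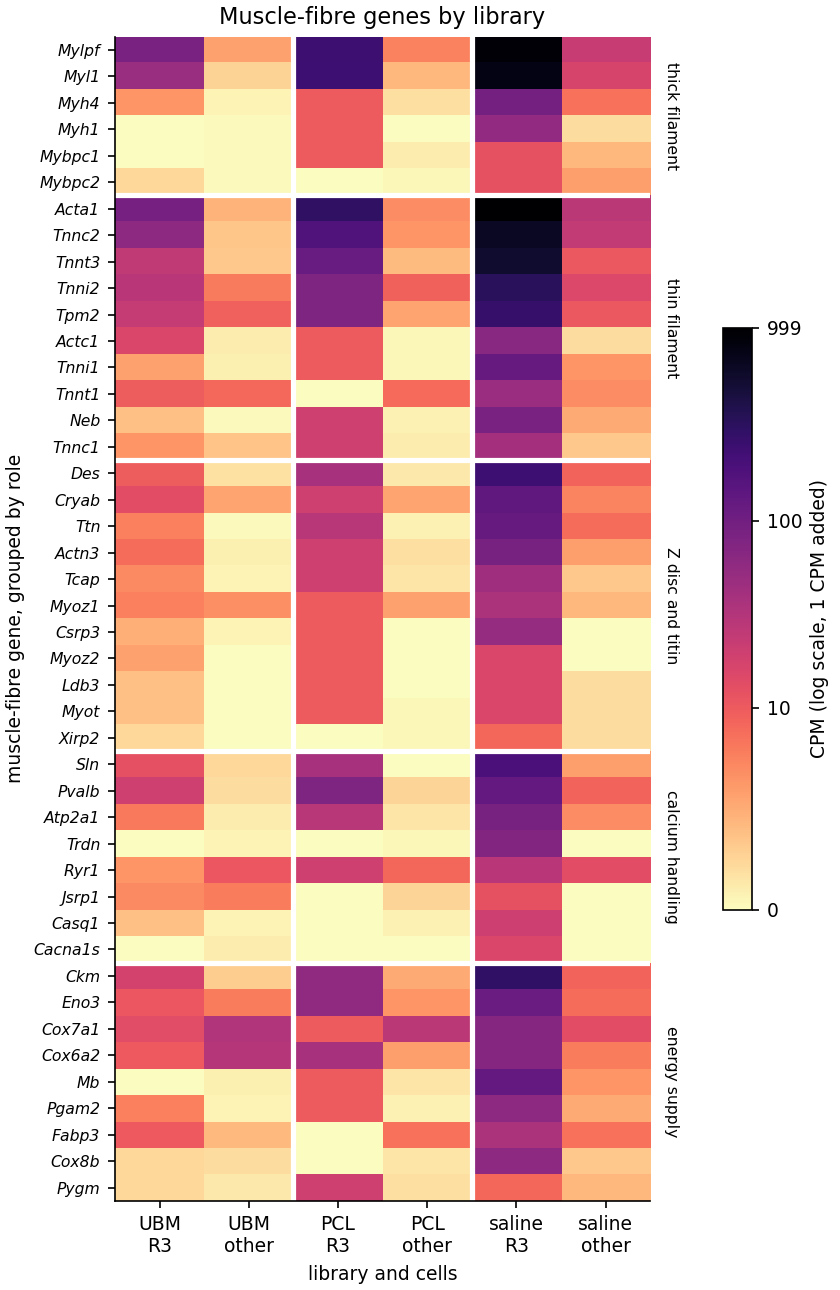
Levels of the 44 measured muscle-fibre genes (rows, grouped by role) in R3 and in other cells of each library (columns), as CPM on a log colour scale with 1 CPM added. The darkest squares are Acta1, Mylpf and Myl1 in saline R3, and Cox6a2 and Cox7a1 are lighter in UBM R3 than in other UBM cells.

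Beyond the muscle-fibre list, genes higher in R3 in both the UBM and the saline library were named by the smaller of their log2 ratios. Within UBM 108 of 2599 genes were at least 2-fold higher (4.16%) and 133 lower (5.12%), and within saline 125 of 2882 were higher (4.34%) and 135 lower (4.68%). Lag3, an inhibitory receptor that binds MHC class II, headed the list. It was 58.3 CPM in R3 against 1.06 CPM in other cells of UBM, 48.9 against 1.19 CPM in PCL and 175 against 7.31 CPM in saline, or 55.0-fold (30.9 to 105), 41.0-fold (11.4 to 123) and 23.9-fold (12.4 to 49.9) higher. Lag3 (chromosome 6, 124904361 to 124911705, minus strand, GRCm38) was seen in 55 of 226 R3 cells (24.3%) and in 36 of 4148 other cells (0.868%), at median depths of 7272 and 5404 UMIs, and no other cluster passed 4.4 CPM.

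Several of the 15 named genes are known from microglia, the macrophages of the brain. They were picked out after the values were seen, and no list of microglia genes was scored. Olfml3, a secreted olfactomedin-like protein, was 58.3 against 2.57 CPM in UBM and 134 against 21.9 CPM in saline. Cx3cr1, the fractalkine receptor, was 46.6 against 3.86 CPM in UBM and 439 against 139 CPM in saline. Over all libraries Cx3cr1 was 112 CPM in R3, 78.7 CPM in cluster FP1 and 71.6 CPM in cluster F1. Tgfbr1, a receptor for transforming growth factor beta, was 109 against 19.9 CPM in UBM and 183 against 52.4 CPM in saline. R3 was the higher side for each of these in both libraries, which follows from the rule that chose them. In PCL, with 16 R3 cells, the same direction held for Cx3cr1 and Tgfbr1 (log2 ratios of 1.51 and 1.52) but not for Olfml3 (−0.36).

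The most abundant gene of the named set was Apoe. Apoe, apolipoprotein E, was 28959 against 7370 CPM in UBM, 31543 against 7796 CPM in PCL and 51004 against 16807 CPM in saline, so that it was among the most abundant RNAs of R3. Ms4a7, a membrane protein of macrophages, was 2389 against 615 CPM in UBM and 2838 against 966 CPM in saline. Lpcat2, an enzyme of phospholipid remodelling, was 149 against 9.99 CPM in UBM and 248 against 70.0 CPM in saline. Pmepa1, Abi3, Gatm, Il18bp and Fam105a had UBM log2 ratios of 2.10, 2.16, 1.55, 1.85 and 1.77 and saline log2 ratios of 1.82, 1.6, 1.61, 1.54 and 1.52.

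The named set also held H19 and Myl4, which were not on the muscle-fibre list. H19, an imprinted noncoding RNA of fetal and regenerating muscle, was 46.6 against 6.36 CPM in UBM and 134 against 19.5 CPM in saline. Myl4, an embryonic myosin light chain, was 25.5 against 0.454 CPM in UBM and 338 against 3.04 CPM in saline, where 54.2% of its R3 UMIs came from 1 cell. Myog, which encodes the differentiation factor myogenin, was 5.10 CPM in UBM R3, with no UMI in other UBM cells, and 44.7 against 2.44 CPM in saline. The 5 measured genes of muscle stem cells and myoblasts summed to 161 CPM in R3 against 14.1 CPM in other cells, the highest of the 9 clusters. They include Vcam1, which macrophages also express, and Des, which is also on the muscle-fibre list. Des gave 43.6 CPM of the R3 sum and only 1 of the 5 genes reached 50 CPM, so the sum leans on few of them. The source of this sum was not tested.

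**Figure D4:**
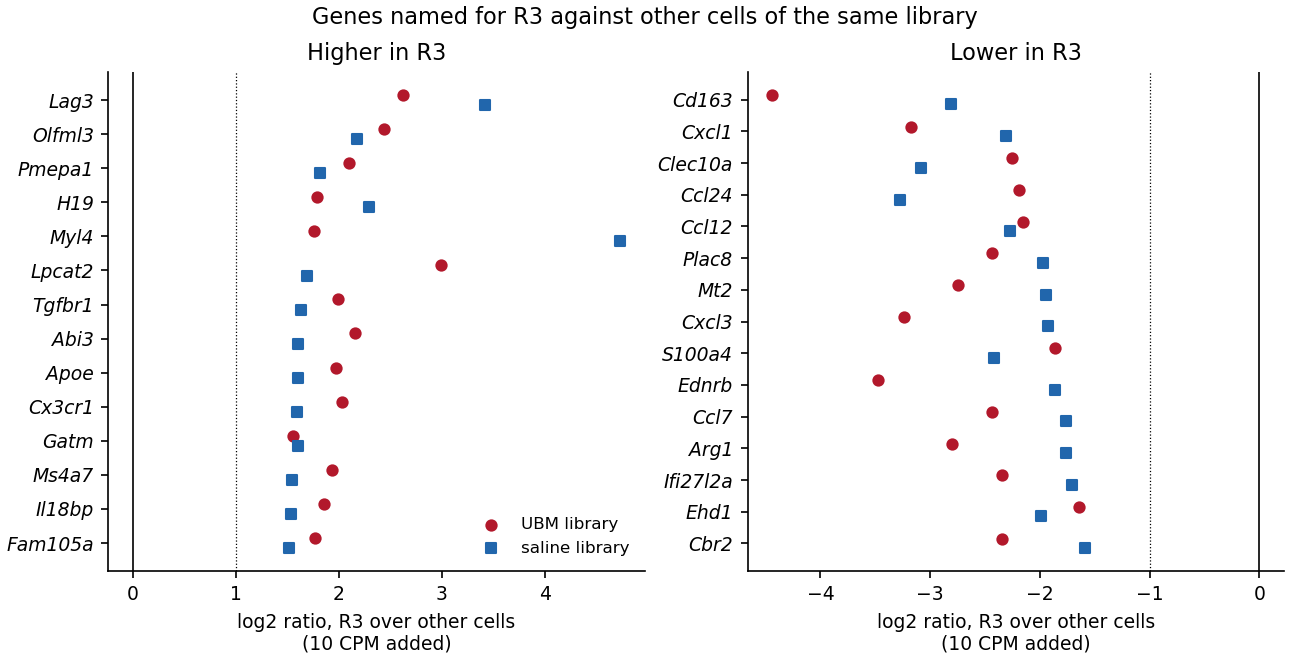
Log2 ratio of R3 over other cells of the same library (horizontal axis, 10 CPM added) for 14 of the 15 genes named as higher and the 15 named as lower. Circles are the UBM library, squares the saline library and dotted lines mark 2-fold; Lag3, at 2.63 in UBM and 3.42 in saline, heads the higher genes, and Cd163, at −4.44 and −2.81, the lower ones.

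The 15 genes named as lower in R3 included a scavenger receptor, chemokines and monocyte genes. Cd163, the haemoglobin scavenger receptor, was 7.28 CPM in R3 against 365 CPM in other UBM cells and 4.07 against 88.9 CPM in saline, where R3 had 1 UMI. Arg1 (arginase) was 455 against 3235 CPM in UBM, 7.11-fold lower (6.57 to 7.70), and 4.07 against 37.7 CPM in saline. Ccl7 and Ccl12, which attract monocytes, were 5.55-fold (5.05 to 6.12) and 4.71-fold (4.07 to 5.49) lower in UBM R3 and 3.48-fold (2.75 to 4.47) and 5.29-fold (3.40 to 8.71) lower in saline R3. Cxcl1, which attracts neutrophils, was 41.5 against 455 CPM in UBM and 20.3 against 140 CPM in saline. S100a4, a calcium-binding protein of migrating cells, was 156 against 593 CPM in UBM and 118 against 672 CPM in saline.

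The other named lower genes were lower in both the UBM and the saline library, which follows from the rule that chose them. Clec10a, a lectin of alternatively activated macrophages, had log2 ratios of −2.25 in UBM and −3.08 in saline, and the chemokine Ccl24 −2.19 and −3.27. Plac8, a monocyte gene, stood at −2.44 and −1.97, Mt2 (a metallothionein) at −2.75 and −1.94 and the endothelin receptor Ednrb at −3.47 and −1.86. Cxcl3, Ifi27l2a, Ehd1 and Cbr2 ranged from −3.24 to −1.64 in UBM and from −1.99 to −1.59 in saline. In saline, 1 cell held 77.8% of the R3 UMIs of Plac8, 72.4% of those of S100a4 and 66.7% of those of Ccl7. In PCL Clec10a, Ccl7 and Cbr2 were about level between R3 and other cells, with log2 ratios of 0.06, 0.03 and −0.02.

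The gene lists placed these genes in programs. Genes of antigen presentation by MHC class II were higher in UBM R3: 7 of 7 tested members (50 CPM on the higher side) passed 2-fold, with a median log2 ratio of 1.26 against −0.04 over all genes tested. Cd74, the invariant chain, was 9985 against 4152 CPM and H2-Aa 3129 against 1229 CPM there. In saline 0 of 7 passed 2-fold, with a median of 0.65 against −0.06 over all genes tested, and Cd74 was 23760 against 14916 CPM. Of dead-cell clearance genes 6 of 11 tested were higher in UBM R3, and 2 of 12 were higher and 1 lower in saline. The list includes Mertk and Axl, receptors that recognise apoptotic cells through bridging proteins, at 107 against 25.5 CPM and 73.6 against 8.70 CPM in UBM, and at 138 against 82.2 CPM and 167 against 103 CPM in saline. Mfge8, a bridging protein, was 319 against 32.2 CPM in UBM and 16.3 against 31.1 CPM in saline. Mertk, Axl and Mfge8 reached 50 CPM in UBM only through R3, so the UBM count follows in part from the choice of tested genes. Over all 18 measured members the median log2 ratio was 0.30 in UBM and 0.43 in saline, with 11 above 0 in each.

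Of 19 tested lysosome genes 4 were at least 2-fold higher and 0 lower in UBM R3, and 1 higher and 1 lower in saline R3, with medians of 0.72 and 0.40. Over all genes tested 4.16% were higher and 5.12% lower in UBM, and 4.34% and 4.68% in saline, with medians of −0.04 and −0.06. The saline counts of lysosome genes were near these shares. Ctsd (cathepsin D) was 4228 against 2150 CPM and Psap (prosaposin) 9599 against 3923 CPM in UBM. Of 19 lipid-handling genes 7 were higher in UBM, among them Gpnmb at 1034 against 312 CPM and Itgax (CD11c) at 307 against 62.4 CPM, while Trem2 itself was 1203 against 866 CPM. In saline 2 of 19 were higher and 3 lower, with a median of 0.24.

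Glycolysis and hypoxia genes were lower in UBM R3, with 18 of 21 tested genes at least 2-fold lower and a median of −1.54. Bnip3, a mitophagy gene induced in hypoxia, was 45.9 against 364 CPM, and Egln3, an oxygen-sensing hydroxylase, 2.18 against 76.1 CPM. In saline 3 of 12 were lower, with a median of −0.53. Of the alternative activation genes 9 of 13 were lower and 1 higher in UBM, and 6 of 12 lower and 1 higher in saline. Of the resident-like genes 9 of 12 were lower and 1 higher in UBM, and 6 of 13 lower and 0 higher in saline. Among them Lyve1 was 0.728 against 51.2 CPM in UBM and 4.07 against 71.8 CPM in saline. Lyve1, Egln3 and Bnip3 reached 50 CPM in UBM only through other cells, so these counts follow in part from the choice of tested genes. Over all 24 measured glycolysis and hypoxia genes the median log2 ratio was −1.51 in UBM and −0.41 in saline. It was −1.15 and −1.42 over 17 alternative activation genes, and −1.36 and −1.03 over 17 resident-like genes. Inflammatory genes were mixed: in UBM Cxcl16 was 695 against 161 CPM and Ccl5 128 against 26.3 CPM, while Cxcl2 was 556 against 2265 CPM and Ccl2 103 against 687 CPM. Cell-cycle genes gave 0 of 5 in either direction in both libraries. Over all genes tested 4.16% were higher and 5.12% lower in UBM, and 4.34% and 4.68% in saline. The cell-cycle counts were near these shares.

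The remaining lists are given by their counts past 2-fold, beside 4.16% higher and 5.12% lower over all genes tested in UBM and 4.34% and 4.68% in saline. A single member past 2-fold in a short list says little beside these shares. Of the pan-macrophage markers 6 of 13 were higher in UBM R3 and 0 of 13 in saline. Interferon-induced genes were lower for 2 of 7 in UBM and 7 of 15 in saline. Matrix and repair factors gave 1 higher and 5 lower of 17 in UBM, and 2 higher and 3 lower of 13 in saline. Complement genes gave 3 higher and 1 lower of 7 in UBM and 1 lower of 7 in saline, and iron and haem genes 2 lower of 8 in UBM and 1 of 8 in saline. Of the handling-stress genes 2 of 19 were lower in UBM and 5 of 20 in saline. MHC class I genes gave 1 lower of 9 in UBM and 0 of 10 in saline, Fc receptors 1 higher of 7 and 0 of 7, inhibitory receptors 2 higher of 8 and 1 of 7, and interleukin-36 and interleukin-17 genes 0 of 2 and 1 lower of 2.

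Lists of markers of other cell types were summed to see which move with R3. Monocyte markers summed to 775 CPM in R3, the lowest of the clusters, against 2726 CPM in other cells. Neutrophil markers were 62.2 against 762 CPM over all libraries, but 51.7 against 73.0 CPM within UBM, and dendritic-cell markers 13.4 against 34.2 CPM. Fibroblast markers were 223 against 244 CPM, within the range of 150 to 348 CPM over clusters. The endothelial list was highest in R3 at 217 CPM, but Fabp4, which macrophages also express, gave 191 CPM of it. Within saline the list was lower in R3, at 20.3 against 75.5 CPM. Cldn5 and Emcn had no UMI in R3. In the B-cell list, highest in R3 at 22.1 CPM against 6.99 CPM, 2 of 8 genes were measured, and in the T- and NK-cell list Cd3d, Lck, Nkg7 and Gzma had no UMI in R3. Pericyte markers were 9.30 against 6.25 CPM, platelet 1759 against 6113 CPM, Schwann-cell 113 against 161 CPM and eosinophil and mast-cell markers 1.16 against 4.35 CPM. Erythroid markers were 6.97 against 91.3 CPM over all libraries, but 2.18 against 3.63 CPM within UBM, 78.2 against 211 CPM within PCL and 4.07 against 3.04 CPM within saline. The T- and NK-cell list was 98.2 against 74.0 CPM and the osteoclast list 1243 against 329 CPM. The part of these lists in the R3 results was not tested.

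The genes named for R3 were also read in cells without any muscle-fibre UMI. In the UBM library 67 R3 cells and 1131 other cells had no muscle-fibre UMI. A cell with only a Cox7a1 or Cox6a2 UMI was left out by this rule. The cells kept are a subset of the cells in which the genes were chosen, so that the direction of the genes was largely fixed and the values are a description. Over all genes 96 were at least 2-fold higher and 142 lower between these cells, against 108 and 133 between all UBM cells. Of the genes named as higher 13 of 15 were at least 2-fold higher, and of those named as lower 15 of 15 were at least 2-fold lower. Lag3 was 35.7 against 1.16 CPM, 30.8-fold higher (12.3 to 87.4), on 18 and 7 UMIs. Apoe was 24939 against 8450 CPM, Acp5 779 against 61.5 CPM and Itgax 353 against 46.9 CPM. The exceptions were the developmental muscle transcripts, H19 at 15.9 against 7.11 CPM and Myl4 at 1.98 against 0.661 CPM on 1 and 4 UMIs, and the intervals of both ratios (0.906 to 4.80 and 0.0609 to 30.3) include 1. Choosing cells without muscle-fibre UMIs could itself lower such transcripts, so their fall is also a description only. The MHC class II genes were closer, with H2-Eb1 at 1570 against 1037 CPM.

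When the cells were clustered anew without the muscle-fibre genes, 194 of the 226 R3 cells (85.8%) fell in 1 of 13 clusters, and R3 cells were 71.9% of that cluster. With all genes 204 did so (90.3%), in 1 of 12 clusters. Leaving out further muscle transcripts as well, among them Myl4, H19 and Myh8, again put 194 together. By library 158 of 173 UBM, 7 of 16 PCL and 29 of 37 saline R3 cells were in the cluster formed without the muscle-fibre genes. That cluster also took in other saline cells, so that it made up 26.1% of the saline library, against 10.9% for the authors' R3.

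Inside UBM R3, cells rich in muscle-fibre RNA differed from cells without it in some macrophage genes. The contrast of 24 cells with 10 or more muscle-fibre UMIs and 67 cells with none was chosen after the data had been seen. Muscle-fibre genes were left out of the totals. Of 2589 genes 89 were at least 2-fold higher (3.44%) and 64 lower (2.47%), and the median log2 ratio was 0.05. Lag3 was 175 CPM in the rich cells against 35.7 CPM in cells with none, 4.90-fold higher (2.69 to 9.22), with 35.3% of its UMIs in the rich cells from 1 cell. Tmem119, a microglia gene, was 51.5 against 3.97 CPM (a ratio interval of 2.77 to 122), and Il1b, interleukin-1 beta, 335 against 93.2 CPM. H19, the RNA of fetal and regenerating muscle, was 170 against 15.9 CPM, and choosing cells by muscle-fibre UMIs could itself raise it. The cell-cycle genes Hist1h2ap and Top2a were also higher, but 1 cell held 92.2% and 100% of their UMIs.

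Genes lower in the muscle-rich cells included some of lipid handling and of alternative activation. Fabp4, a fatty-acid binding protein, had no UMI in the rich cells and 293 CPM in cells with none. Retnla was 1266 against 6005 CPM, 4.74-fold lower (4.16 to 5.42), Ccl24 72.0 against 365 CPM and Chil3 77.2 against 339 CPM. Gpnmb, a lysosomal glycoprotein of lipid-laden macrophages, was 340 against 1041 CPM, 3.06-fold lower (2.37 to 4.02), and Spp1 (osteopontin) 1451 against 2881 CPM. All Chil3 UMIs of the rich cells came from 1 cell, and 39.4% of their Retnla UMIs. Among general macrophage genes Lyz2 was 24343 against 21880 CPM and C1qc 5491 against 4649 CPM, both under 2-fold apart, as were Adgre1 at 736 against 385 CPM and Cd68 at 757 against 1079 CPM. In saline R3 the contrast could be made only with cells of 1 to 9 UMIs, since 2 cells had none. There Gpnmb was 84.2 CPM in 27 rich cells against 1591 CPM in 8 cells, and Lag3 was 163 against 239 CPM, so Lag3 was not higher in the rich cells of that library. Retnla, at 421 against 39.8 CPM, and Tmem119, at 21.1 against 39.8 CPM, also ran the other way there. H19, at 168 against 19.9 CPM, and Spp1, at 310 against 1512 CPM, ran the same way as in UBM. The 8 cells summed to 50274 UMIs without the muscle-fibre genes, so 19.9 and 39.8 CPM rest on very few UMIs. A single cell held 93.9% of the saline R3 UMIs of Retnla. The saline directions of Retnla, Tmem119 and H19 are therefore uncertain.

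**Figure D5:**
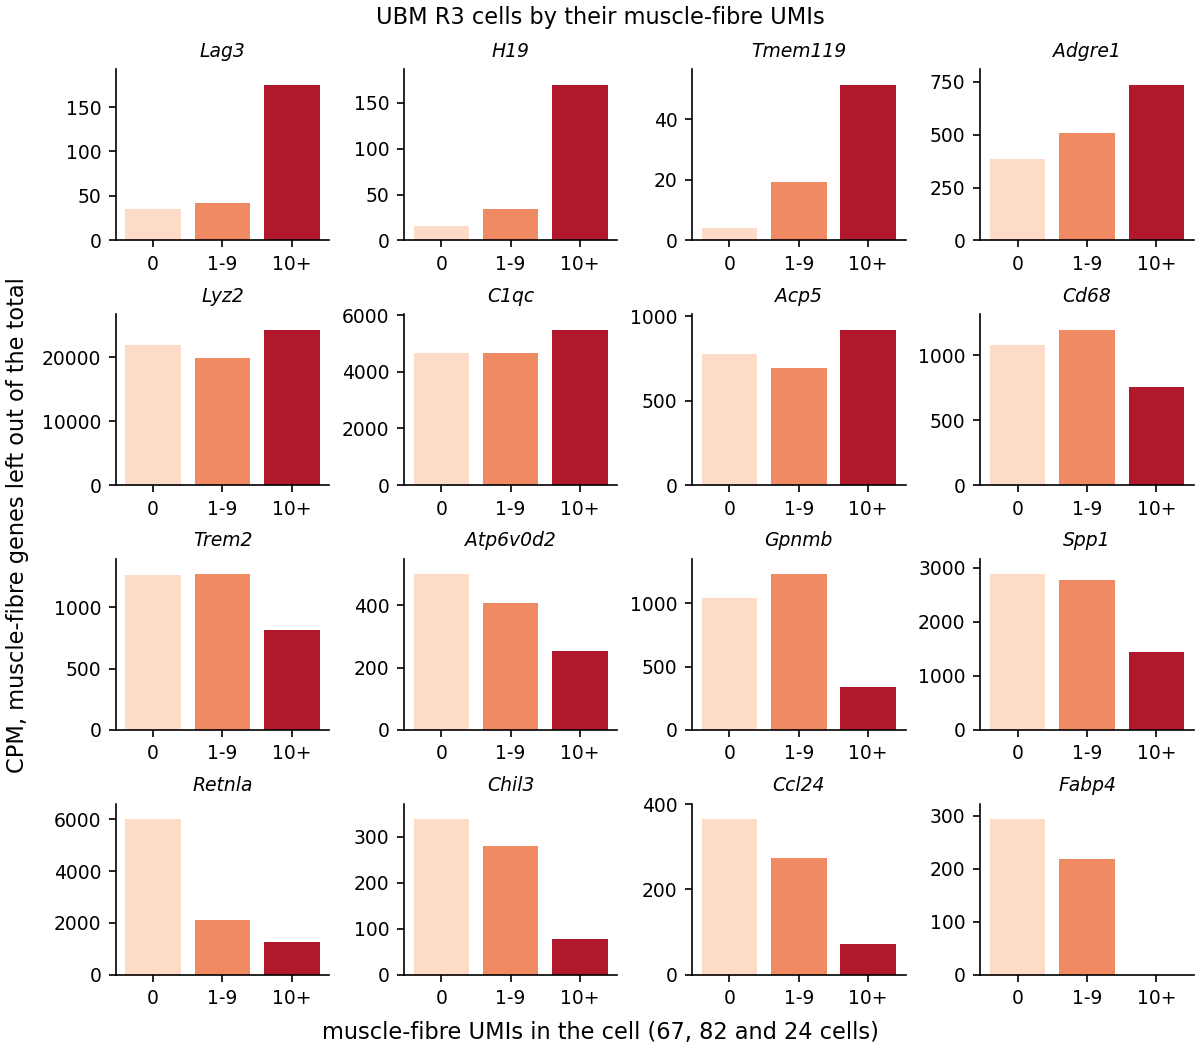
CPM of 16 genes (panels) in UBM R3 cells with 0, 1 to 9 and 10 or more muscle-fibre UMIs (67, 82 and 24 cells), with muscle-fibre genes left out of the total. Bars are sums over cells with no replicate; Lag3, H19 and Tmem119 are highest and Fabp4, Retnla and Gpnmb lowest in the cells with 10 or more.

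R3 cells of the UBM and saline libraries were then compared. Between UBM and saline R3, 118 of 2808 genes were at least 2-fold higher in UBM (4.2%) and 192 at least 2-fold lower (6.84%), with 1 library on each side. Of the alternative activation genes 6 of 12 were higher and 1 lower, with a median of 1.35: Arg1 was 455 CPM in UBM R3 against 4.07 CPM in saline R3, which is 1 UMI, and Chil3 273 against 4.07 CPM. Retnla was 3412 against 333 CPM, 10.2-fold higher (8.23 to 12.9), and a single saline cell held 93.9% of the saline R3 UMIs. Mmp12, macrophage elastase, was 631 against 8.13 CPM. Ctsk was 234 CPM against no UMI, at least 19.2-fold higher with a floor of 3 counts, although 1 cell held 45.8% of its UMIs in UBM. Rnase2a, a ribonuclease, was 126 CPM against no UMI, at least 10.3-fold higher. Mfge8 was 319 against 16.3 CPM, Fabp4 215 against 12.2 CPM and F7, coagulation factor VII, 165 against 4.07 CPM. Many of these differences were also present between the other cells of the libraries. There Arg1 was 3235 CPM in UBM against 37.7 CPM in saline, Mmp12 1192 against 168 CPM and Rnase2a 301 CPM against no UMI, while Mfge8, at 32.2 against 31.1 CPM, and Fabp4, at 64.6 against 60.3 CPM, were close.

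Lower in UBM R3 were the muscle-fibre genes and genes of inflammation and antigen presentation. Each of the 44 measured muscle-fibre genes had a log2 ratio below 0, with a median of −2.44. Developmental muscle genes were among the 10 lowest of all other genes: Myl4 at 25.5 against 338 CPM, Tnnt2 at 0.728 against 93.5 CPM and Myh8 at 1.46 against 102 CPM, with 88.0% of the saline Myh8 UMIs in 1 cell. Car3, a carbonic anhydrase of muscle, was 1.46 against 61.0 CPM and Smpx, a small muscle protein, 2.18 against 61.0 CPM. Of macrophage genes, Cx3cr1 was 46.6 against 439 CPM, 9.42-fold lower (6.85 to 13), and the transcription factor Cebpb 138 against 1074 CPM, 7.76-fold lower (6.41 to 9.40). Plau, urokinase, was 3.64 against 110 CPM and Hes1, a Notch target, 6.55 against 65.1 CPM. Cd209a, a lectin, had no UMI in UBM R3 and 69.1 CPM in saline R3, which came from 1 cell. In other cells Cx3cr1 was 3.86 CPM in UBM against 139 CPM in saline and Cebpb 313 against 1380 CPM, the same direction as in R3.

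By list, 6 of 7 MHC class II genes were lower in UBM R3 than in saline R3, with a median of −1.37 against −0.02 over all genes tested. Cd74 was 9985 CPM in UBM R3 and 23760 CPM in saline R3. Of the inflammatory genes 7 of 13 were lower, with Il1b at 203 against 647 CPM and Ccl3 at 92.5 against 423 CPM. Of the lipid-handling genes 8 of 19 were higher in UBM, with Fabp5 at 2990 against 683 CPM and Lgals3 (galectin-3) at 5809 against 1570 CPM. Other cells of the 2 libraries differed in the same direction for Cd74 and Il1b, at 4152 against 14916 CPM and 93.5 against 799 CPM. Lyz2 and C1qc were close between the R3 groups, with log2 ratios of −0.04 and −0.05. The PCL library had 16 R3 cells and is set beside without a comparison: Cd68 was 1408 CPM, Acp5 215 CPM, Lag3 48.9 CPM and Cx3cr1 205 CPM in PCL R3.

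R3 was most like clusters RP2 and R1 over 3575 genes without the muscle-fibre genes, with Pearson correlations of 0.936 and 0.912 across genes, which are not independent replicates. The other clusters gave 0.784 to 0.897. Within UBM, R3 against the 640 RP2 cells had 137 of 2565 genes at least 2-fold higher (5.34%) and 110 lower (4.29%). Ear2, an eosinophil-type ribonuclease, was 369 CPM in R3 against 9.53 CPM in RP2, Acp5 757 against 41.2 CPM, and H2-Ab1 3121 against 221 CPM. Trem2, the lipid receptor, was 1203 against 1279 CPM and Cd68 1090 against 920 CPM, so these were close. Lower in R3 were Cxcl1 at 41.5 against 676 CPM and the hypoxia gene Ankrd37 at 10.9 against 182 CPM. Against the 289 R1 cells, 176 of 2612 genes were at least 2-fold higher (6.74%) and 153 lower (5.86%). Apoe was 28959 CPM in R3 against 1678 CPM in R1 and Ms4a7 2389 against 109 CPM, while Gzma, a granzyme of NK cells, had no UMI in R3 and 147 CPM in R1. Acp5 was 757 CPM in R3 against 97.4 CPM in R1. Ear2 and H2-Ab1, high against RP2, were not among the genes with the largest ratios over R1. Their difference from RP2 thus does not make them particular to R3. Lag3 had no UMI in RP2 of UBM and 2.48 CPM in R1, against 58.3 CPM in R3.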

How the data were processed

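The authors sorted macrophages, made droplet libraries of RNA 3' ends and deposited UMI counts per gene and cell with a table of their cluster labels, per the labels' protocols. Per the submitters' processing notes they used Cell Ranger and Seurat (version 2), and the notes list a human build although the gene symbols are mouse. The deposited counts cover 13242 genes in 4374 cells and are not normalized.

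Counts were summed per library for R3 and for other cells and divided by the sum (CPM). A gene was tested at 50 CPM or more on the higher side and called at 2-fold after adding 10 CPM; folds given with intervals are plain CPM ratios. No p-value is given: treatments have 1 library each, and R3 against other cells, although both are in every library, compares cells clustered on the genes compared. Named genes were the 15 with the largest smaller log2 ratio over UBM and saline in each direction, and for UBM against saline in R3 the 10 largest in each direction, muscle-fibre, mitochondrial and ribosomal protein genes left out; 1 of the 15 higher genes is counted but not reported here, and other genes in the text were chosen after their values were seen, or are members of the lists. Intervals are exact at 95% and, like the floor of 3 counts, cover counting error only. The members and gene lists were chosen with earlier results of these data known. New clusterings used 30 components, 20 neighbours and the 2000 most variable genes (leidenalg 0.10.2). Summing and calling were tested on simulated counts. Software was Python 3.11.15 with scipy 1.17.1 and R 4.3.3 with edgeR 4.0.16 for scaling factors only.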

Additional observations from a re-analysis of the deposited data

Results flagged for a closer look

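Ctsk, Fabp4 and Cox6a2 lay on opposite sides of other cells in R3 of the UBM and saline libraries, and these differences were not tested. The log2 ratio of R3 over other cells was 1.38 in UBM and −1.11 in saline for Ctsk, 1.59 and −1.66 for Fabp4, and −1.02 and 2.35 for Cox6a2. In saline R3 Ctsk had no UMI and Fabp4 had 3.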

How the results depend on the processing

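Of the values of single genes under the alternatives, 320 of the UBM comparison were the same and 4 moved, and 529 of the comparison over all libraries were the same, 10 moved and 1 reversed. Within saline 350 were the same, 4 moved and 6 reversed. Between UBM and saline R3, 253 were the same, 12 moved and 5 reversed. Medians of lists moved in 31 cases over all libraries, where 1 also reversed. They moved in 9 within UBM, 15 within saline and 17 between UBM and saline R3. Counts of genes at least 2-fold apart moved by over 1.5 times as follows. Over all libraries 212 genes were lower with no minimum CPM and 151 higher without the UBM library. Within saline 300 were higher and 418 lower with no minimum, and 197 higher with each cell counted alike. Between UBM and saline R3, 179 were higher with trimmed-mean scaling, which moved the median of all genes by 0.16, and 338 were higher and 456 lower with no minimum. Keeping only cells without a muscle-fibre UMI left 2 saline R3 cells with 3875 UMIs. It gave 1005 higher and 1563 lower genes within saline, and 1351 higher and 1008 lower between UBM and saline R3. On those 2 cells log2 ratios turned round within saline for Lag3 (−0.50), Olfml3 (−1.92), H19 (−0.76), Lpcat2 (−3.41), Gatm (−2.89) and Cd163 (1.37), and between UBM and saline R3 for Fabp4 (−0.79), Myl4 (0.26), Cebpb (3.88), Hes1 (0.67) and Lag3 (2.19). In the same setting Cx3cr1 over all libraries was −0.17, and the erythroid list had a median of 0.0049 without the PCL library. The cause was not tested.

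The muscle-fibre share of R3 UMIs in UBM was 0.0617% as a mean of per-cell shares, 0.0377% without the 5 richest cells, 0.0455% with sarcomere genes only and 0.154% with 5 genes that many cells express. In PCL the last 3 were 0.0385%, 0.150% and 0.288%. In saline the 4 were 1.28%, 0.369%, 0.573% and 0.832%, and without the richest cell the share was 0.559%. The share of UBM R3 cells with a muscle-fibre UMI was 41.8% after thinning. The cluster matching R3 held 0.513% of PCL cells without muscle-fibre genes and also without further muscle genes. In saline it held 31.4% with all genes, 26.1% without muscle-fibre genes and 28.4% without further ones. The settings on the richest cell, on widely expressed genes and on further muscle genes were chosen after seeing the data. No paired analysis was possible because no comparison comes from a test and the libraries carry no replicate numbers; R3 and other cells share each library, but were clustered on the genes compared. PCL values rest on 16 R3 cells, and a saline count of 0 allows 12.2 CPM.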
